A study of Mus musculus with 2 samples.

Results

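The leukocyte lineage markers examined here are 45 genes used to recognise immune cells in tissue. They were given by symbol, with results of these data known, and comprise Ptprc as a marker of all leukocytes, the macrophage growth factor Csf1 with its receptor, and sets for macrophages, dendritic cells, T cells, natural killer (NK) and cytotoxic cells, mast cells, B and plasma cells, and granulocytes. Of these, 44 had a row in both gene tables, out of 43346 Ensembl genes in all. No row matched Trdc (the constant region of the T cell receptor delta chain; chromosome 14, 54142851 to 54148868, mm10), so it has no value.

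The libraries were made from whole urinary bladder of C57BL/6J mice aged 8 weeks, described as adult littermates with the sexes mixed. The series has 1 group, adult bladder, with 2 libraries numbered as biological replicates 2 and 1, and no treatment, mutation or cell sorting. Each is a stranded paired-end library of long polyadenylated RNA after ribosomal RNA removal, with spike-in RNA added. Both carry the same donor entry, and the number of animals behind each is not given, so the spread between them may be partly technical. A series of 1 group allows no contrast, and no p-value is given. Levels are given in TPM (a length-adjusted abundance scaled to the library total), with the SD of the 2 libraries. In whole tissue, fewer cells of a type and less RNA per cell cannot be told apart.

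Leukocytes in a healthy organ are mostly long-lived tissue macrophages and mast cells, with smaller numbers of dendritic cells and lymphocytes. Tissue macrophages depend on the receptor Csf1r and its ligand Csf1, mast cells on the receptor Kit, and lymphocytes are defined by their antigen receptor chains and the signalling chains that accompany them. In the bladder these cells lie mainly in the connective tissue under the epithelium and around the muscle bundles, where macrophages take part in the response to bacteria that enter from urine. Several of the genes are also active in other cells of the wall. Lyve1 and Mrc1 are made by lymphatic endothelium as well as macrophages, and Kit by interstitial cells of Cajal as well as mast cells.

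Some members make RNAs that differ by cell type in a first exon or a splice junction, and these sequences are shown because the junction reads described further on separate the forms. The last 50 bases of each RefSeq promoter window (GRCm38.p6, which has the coordinates of mm10) are transcribed and stand in capitals. Gata2, on the plus strand of chromosome 6, has a distal start (chr6:88193641-88193940), whose first exon is known from blood-forming cells, and a proximal start (chr6:88198414-88198713), which is used more widely. Lck, on the minus strand of chromosome 4, has a distal start (chr4:129573592-129573891), used by mature T cells, and a proximal start (chr4:129558323-129558622), known from thymocytes.
Gata2 distal: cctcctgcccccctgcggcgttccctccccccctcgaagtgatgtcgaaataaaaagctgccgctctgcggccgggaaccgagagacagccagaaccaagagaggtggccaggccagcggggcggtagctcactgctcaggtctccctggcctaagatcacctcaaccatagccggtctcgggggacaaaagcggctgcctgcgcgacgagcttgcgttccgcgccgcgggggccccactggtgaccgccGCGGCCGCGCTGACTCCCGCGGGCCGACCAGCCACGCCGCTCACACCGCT
Gata2 proximal: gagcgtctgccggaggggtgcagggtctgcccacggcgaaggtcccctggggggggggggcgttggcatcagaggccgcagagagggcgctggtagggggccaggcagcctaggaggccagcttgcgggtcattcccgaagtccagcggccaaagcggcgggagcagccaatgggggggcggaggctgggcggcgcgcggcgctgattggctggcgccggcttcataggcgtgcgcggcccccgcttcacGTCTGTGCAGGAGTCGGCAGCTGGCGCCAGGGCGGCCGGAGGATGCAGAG
Lck distal: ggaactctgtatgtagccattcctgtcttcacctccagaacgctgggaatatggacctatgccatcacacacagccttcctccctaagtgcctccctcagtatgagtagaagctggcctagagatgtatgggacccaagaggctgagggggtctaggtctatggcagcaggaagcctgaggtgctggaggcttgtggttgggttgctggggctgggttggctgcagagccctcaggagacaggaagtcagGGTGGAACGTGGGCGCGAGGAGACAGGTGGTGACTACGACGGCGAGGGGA
Lck proximal: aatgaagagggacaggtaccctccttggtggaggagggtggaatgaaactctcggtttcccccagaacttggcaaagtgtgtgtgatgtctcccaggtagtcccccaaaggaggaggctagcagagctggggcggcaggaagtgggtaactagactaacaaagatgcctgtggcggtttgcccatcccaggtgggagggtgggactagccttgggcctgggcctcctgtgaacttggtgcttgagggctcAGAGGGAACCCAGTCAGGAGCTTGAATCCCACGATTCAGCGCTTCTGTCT
The first exons lie 4773 bases apart in Gata2 and 15269 bases apart in Lck.

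The remaining sequences are stretches of GENCODE M21 transcripts over exon joints. In Kit, 2 donor sites of exon 9 (plus strand, chromosome 5, exon start 75638965, mm10) differ by 12 bases, which stand in capitals in Kit-201 and are missing from Kit-204. In Ptprc, which encodes CD45, exon 3 can be joined straight to exon 7, as in Ptprc-203, or to variable exon 5, as in Ptprc-213, and the following exon stands in capitals. In Ighm, the joint from within the last constant exon to the first membrane exon (capitals; minus strand, chromosome 12, 113418953 to 113419068) is found in RNA for the membrane form of the IgM heavy chain.
Kit-201: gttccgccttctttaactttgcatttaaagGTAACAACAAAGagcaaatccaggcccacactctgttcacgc
Kit-204: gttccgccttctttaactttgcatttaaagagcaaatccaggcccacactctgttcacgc
Ptprc-203: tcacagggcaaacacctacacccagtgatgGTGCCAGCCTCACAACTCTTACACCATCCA
Ptprc-213: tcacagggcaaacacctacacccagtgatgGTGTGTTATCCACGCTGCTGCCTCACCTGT
Ighm-202: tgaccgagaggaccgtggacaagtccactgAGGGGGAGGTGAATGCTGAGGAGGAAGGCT

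Replicate 2 had 105057347 estimated fragment counts on genes and replicate 1 had 99367453. At this depth a count of 0 allows up to 3 counts, which is 0.0286 CPM (counts scaled to the gene total) in replicate 2 and 0.0302 CPM in replicate 1. That floor and all intervals below cover counting error only. Genes of the organ stood far above the leukocyte markers, such as smooth muscle actin Acta2 at 8674 ± 235 TPM and the uroplakin Upk1a at 1977 ± 516 TPM. The libraries differed in such genes, with Upk1a higher in replicate 2 (2342 TPM, against 1612 TPM in replicate 1) and the smooth muscle myosin Myh11 lower there (1170 TPM, against 2113 TPM in replicate 1).

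Of the 44 measured members, 28 (63.6%) reached 1 TPM in both libraries, a level that 32.7% of all Ensembl genes reached. A further 4 reached it in 1 library and 12 in neither. At 10 TPM or more in both stood 9, a level for which no share of all genes is given. The members together summed to 312 TPM in replicate 2 and 295 TPM in replicate 1. Ranked by the median of their members, the growth factor axis came first, at 28.2 ± 0.919 TPM, followed by macrophage genes at 11.0 ± 1.06 TPM, Ptprc at 8.72 ± 0.226 TPM, mast cell genes at 5.97 ± 0.884 TPM and dendritic cell genes at 2.42 ± 0.615 TPM. NK and cytotoxic genes at 1.31 ± 0.311 TPM, T cell genes at 1.11 ± 0.205 TPM and B and plasma cell genes at 1.08 ± 0.255 TPM came next, and these 3 medians lay within their spread of one another. Granulocyte genes were lowest, at 0.180 ± 0.0707 TPM. Members of a group share their cells, so these medians describe the genes and are not replicated measurements of a cell type.

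**Figure D1:**
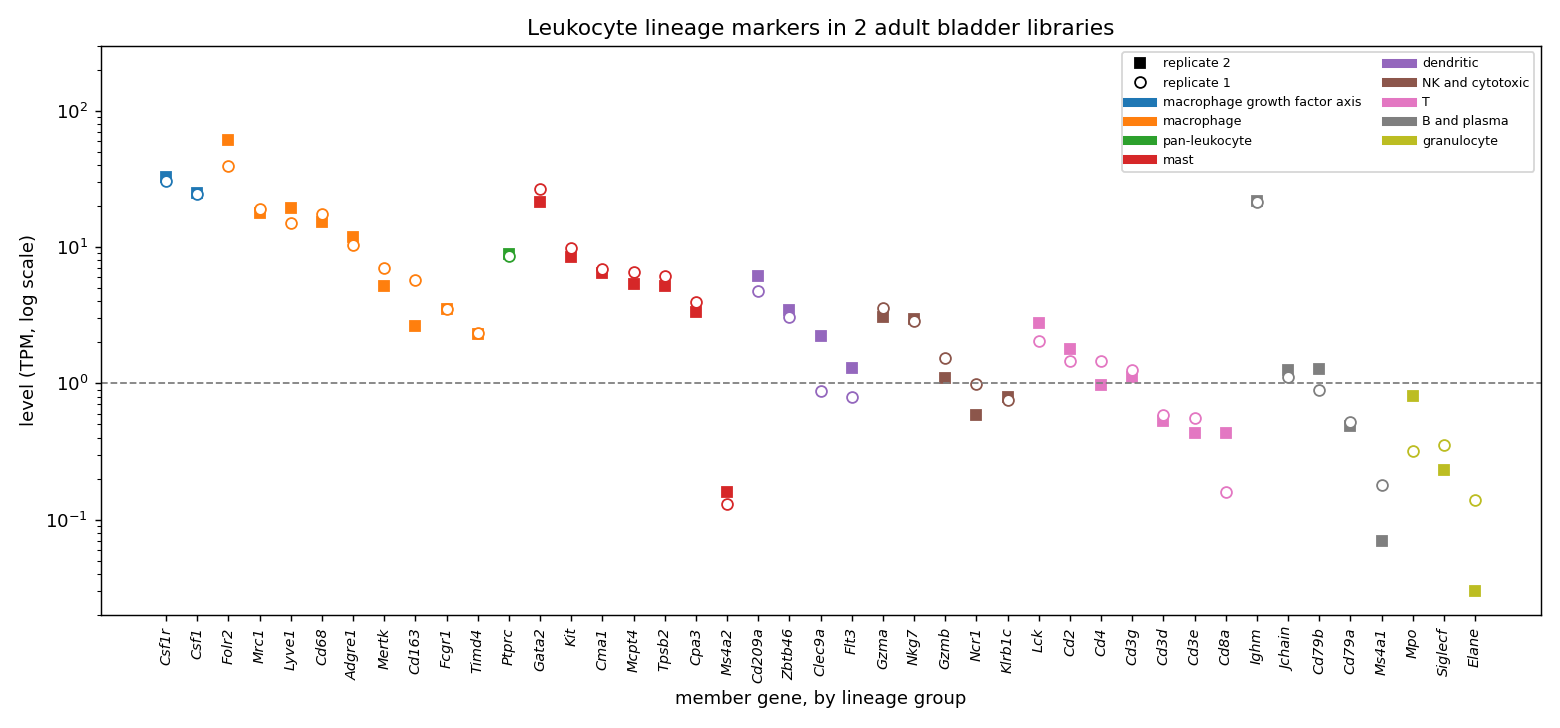
Level of each measured member in TPM (vertical log axis) by lineage group (horizontal axis), with filled squares for replicate 2, open circles for replicate 1 and a dashed line at 1 TPM; Ly6g, with a count of 0 in both libraries, cannot be drawn on a log axis. All 9 macrophage genes lie above the line in both libraries and all granulocyte genes lie below it.

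The pan-leukocyte gene Ptprc (ENSMUSG00000026395, chromosome 1, 138062861 to 138175708, minus strand), the CD45 phosphatase that sets the threshold of antigen receptor signalling, had 8.88 TPM in replicate 2 and 8.56 TPM in replicate 1, from 3297 counts in replicate 2 and 2737 in replicate 1. Both libraries therefore gave nearly the same level, and the ratio of scaled counts, replicate 2 over replicate 1, was 1.04 with a 95% counting interval of 0.993 to 1.10. The gene was 9265th of all Ensembl genes by mean TPM.

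Both genes of the growth factor axis were abundant. The receptor Csf1r (chromosome 18, 61100598 to 61132149), a tyrosine kinase that macrophages need for survival, had 32.7 TPM in replicate 2 and 30.6 TPM in replicate 1. Its ligand Csf1 (chromosome 3, 107741048 to 107760469), made by stromal and epithelial cells, had 24.9 TPM in replicate 2 and 24.4 TPM in replicate 1. Csf1 was below Csf1r in both libraries, by a log2 ratio of TPM of -0.36 ± 0.04. Il34, the other ligand of the receptor, stood at 8.98 ± 1.57 TPM.

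All 9 macrophage genes were detected, over a range of means from 2.32 to 50.3 TPM. Folr2 (chromosome 7, 101839988 to 101857194), a folate receptor carried by tissue-resident macrophages, was the highest member of all and had 61.4 TPM in replicate 2, against 39.1 TPM in replicate 1. Lyve1, a hyaluronan receptor of perivascular macrophages and lymphatic vessels, had 19.5 TPM in replicate 2 and 15.0 TPM in replicate 1. Both genes were higher in replicate 2, and Lyve1 stayed below Folr2 in each library (log2 ratio -1.52 ± 0.19).

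Mrc1, the mannose receptor (CD206), had 17.9 TPM in replicate 2 and 19.2 TPM in replicate 1. The lysosomal glycoprotein Cd68 had 15.4 TPM in replicate 2 and 17.4 TPM in replicate 1. Adgre1 (chromosome 17, 57358691 to 57483527), which encodes the F4/80 antigen that defines mouse macrophages, had 11.8 TPM in replicate 2 and 10.3 TPM in replicate 1. Mrc1 exceeded Adgre1 in both libraries, by a log2 ratio of 0.75 ± 0.21. Adgre1 was higher and the other two were lower in replicate 2.

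Mertk, a receptor kinase for the clearance of dying cells, had 5.14 TPM in replicate 2 and 7.04 TPM in replicate 1. Fcgr1, the high-affinity IgG receptor CD64, had 3.54 TPM in replicate 2 and 3.52 TPM in replicate 1. Timd4, a phosphatidylserine receptor of some self-maintaining macrophages, had 2.30 TPM in replicate 2 and 2.34 TPM in replicate 1. Timd4 was the lowest of the macrophage genes, below Folr2 by a log2 ratio of -4.40 ± 0.48, and it and Fcgr1 hardly moved between the libraries.

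Cd163 (chromosome 6, 124304656 to 124330527), a scavenger receptor for haemoglobin complexes, had 2.62 TPM in replicate 2 and 5.70 TPM in replicate 1, from 945 counts in replicate 2 and 1863 in replicate 1. Of the macrophage genes it had the ratio between libraries farthest from 1, and its log2 ratio to Adgre1 was -2.17 in replicate 2 and -0.85 in replicate 1, so the order of the 2 genes was kept but its size was not.

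Of 20 further macrophage genes, 19 reached 1 TPM in both libraries, with a median of 14.6 TPM. The highest were the lysozyme Lyz2 at 331 ± 15.8 TPM and the complement chains C1qb at 122 ± 13.8 TPM and C1qa at 98.0 ± 10.8 TPM. The markers of lymphatic endothelium reached that level in 3 of 4 cases, with summed levels of 156 TPM in replicate 2 and 130 TPM in replicate 1. The chemokine Ccl21a had 89.1 ± 12.2 TPM and the membrane glycoprotein Pdpn 49.4 ± 6.67 TPM, whereas the defining transcription factor Prox1 had 0.63 ± 0.127 TPM. The part of lymphatic endothelium in the levels of Lyve1 and Mrc1 was not tested.

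Dendritic cell genes were lower and less even. Cd209a (chromosome 8, 3743397 to 3748984), a C-type lectin of monocyte-derived and conventional type 2 dendritic cells, had 6.15 TPM in replicate 2 and 4.80 TPM in replicate 1. Zbtb46, a transcription factor of conventional dendritic cells that endothelium also expresses, had 3.47 TPM in replicate 2 and 3.09 TPM in replicate 1. Those 2 were the group's detected members.

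Clec9a (chromosome 6, 129408862 to 129424763), the receptor by which type 1 dendritic cells take up dead cell material, had 2.24 TPM in replicate 2 and 0.880 TPM in replicate 1, from 518 counts in replicate 2 and 209 in replicate 1. Flt3, the growth factor receptor of dendritic cell precursors, had 1.29 TPM in replicate 2 and 0.800 TPM in replicate 1. Each of these lay above 1 TPM in replicate 2 only. Flt3 was below Zbtb46 in both libraries by a log2 ratio of -1.69 ± 0.37. Among 8 further dendritic cell genes 5 were detected, led by the MHC class II chain Cd74 at 412 ± 25.3 TPM, Batf3 at 3.33 ± 0.269 TPM and the integrin Itgax at 2.13 ± 0.0849 TPM. The blood endothelial markers, which matter for Zbtb46, were all 4 detected and summed to 64.3 TPM in replicate 2 and 86.3 TPM in replicate 1, led by Pecam1 at 41.1 ± 7.39 TPM. Their part in the level of Zbtb46 was not tested.

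Mast cell genes formed a tight band of proteases with 2 higher genes above it. The chymases Cma1 and Mcpt4 both lie on chromosome 14 and encode granule serine proteases. Cma1 had 6.48 TPM in replicate 2 and 6.91 TPM in replicate 1. Mcpt4 had 5.35 TPM in replicate 2 and 6.60 TPM in replicate 1. Mcpt4 was below Cma1 by a log2 ratio of -0.17 ± 0.15, a gap of about the spread between the libraries.

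The tryptase Tpsb2 (chromosome 17, 25366305 to 25369098) had 5.21 TPM in replicate 2 and 6.18 TPM in replicate 1. Cpa3, the granule carboxypeptidase, had 3.33 TPM in replicate 2 and 3.97 TPM in replicate 1. The log2 ratio of Tpsb2 to Cpa3 was 0.64 ± 0.01, so these genes kept their proportion in both libraries. The tryptase Tpsab1, a close copy of Tpsb2, had 0.28 TPM in replicate 2, against 0.20 TPM in replicate 1. Reads shared by such copies could make both values uncertain, which was not tested.

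Kit (chromosome 5, 75574916 to 75656722), the stem cell factor receptor, had 8.45 TPM in replicate 2 and 9.90 TPM in replicate 1. Gata2 (chromosome 6, 88193891 to 88207032), a zinc finger transcription factor of mast cells, endothelium and blood progenitors, had 21.5 TPM in replicate 2 and 26.5 TPM in replicate 1. Kit exceeded Cpa3 by a log2 ratio of 1.33 ± 0.02 and Gata2 exceeded it by 2.71 ± 0.04, so the levels of both kept a nearly fixed proportion to the granule gene. The blood endothelial markers were lower in replicate 2 as well, with a sum of 64.3 TPM, against 86.3 TPM in replicate 1. The part of endothelium in the level of Gata2 was not tested. Ms4a2, the beta chain of the IgE receptor, had 25 counts in replicate 2 and 13 counts in replicate 1, or 0.16 TPM in replicate 2 and 0.13 TPM in replicate 1.

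Of 9 further mast cell genes 3 reached 1 TPM in both libraries, namely Cd63 (316 ± 11.3 TPM), the granule proteoglycan Srgn (16.4 ± 1.63 TPM) and Mitf (3.37 ± 0.0707 TPM), each of which is active in many cell types. The defining genes among them were low, with the IgE receptor alpha chain Fcer1a at 0.335 ± 0.120 TPM and the histidine decarboxylase Hdc at 0.465 ± 0.0495 TPM. The 3 genes listed for interstitial cells of Cajal were all detected and summed to 78.3 TPM in replicate 2 and 81.9 TPM in replicate 1. The chloride channel Ano1 led at 63.9 ± 2.35 TPM. Kitl, at 13.4 ± 0.0636 TPM, was 1 of the 3, but it encodes the ligand of Kit and is no specific marker of these cells. The part of interstitial cells of Cajal in the level of Kit was not tested.

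T cell genes were near the limit of 1 TPM, and 3 of the 7 measured were detected. Lck (chromosome 4, 129548344 to 129573641), the kinase that starts T cell receptor signalling, had 2.77 TPM in replicate 2 and 2.04 TPM in replicate 1. The adhesion receptor Cd2 had 1.79 TPM in replicate 2 and 1.47 TPM in replicate 1. Cd3g had 1.12 TPM in replicate 2 and 1.26 TPM in replicate 1.

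Cd3g, Cd3d and Cd3e encode the gamma, delta and epsilon chains of the CD3 complex and lie side by side on chromosome 9. Cd3d had 50 counts in replicate 2 and 51 in replicate 1 (0.53 TPM in replicate 2, 0.59 TPM in replicate 1), and Cd3e had 45 counts in replicate 2 and 53 in replicate 1 (0.43 TPM in replicate 2, 0.56 TPM in replicate 1). The 3 chains did not stand at one level, since Cd3g exceeded Cd3e by a log2 ratio of 1.28 ± 0.15 while Cd3d exceeded it by 0.19 ± 0.16. In the mm9 table the log2 ratio of Cd3g to Cd3e was 0.61, so the size of that gap rests on the quantification used.

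The coreceptor Cd4, which some macrophages and dendritic cells also carry, had 0.970 TPM in replicate 2 and 1.46 TPM in replicate 1. Cd8a, the coreceptor of cytotoxic T cells that is also found on some dendritic cells, had 106 counts in replicate 2 and 35 counts in replicate 1 (0.43 TPM in replicate 2, 0.16 TPM in replicate 1). Cd4 exceeded Cd8a in both libraries, by a log2 ratio of 1.17 in replicate 2 and 3.19 in replicate 1 (mean 2.18, or 1.12 with a pseudocount of 0.5 TPM). The chain that pairs with Cd8a on T cells, Cd8b1, had 19 counts in replicate 2 and 20 in replicate 1. Of 13 further T cell genes 6 were detected, with Thy1, which stromal cells also express, at 68.1 ± 4.84 TPM, and the receptor constant regions Trac and Trbc2 at 3.73 ± 0.636 and 2.84 ± 0.24 TPM.

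Among NK and cytotoxic genes, the granule protein Nkg7 had 2.95 TPM in replicate 2 and 2.87 TPM in replicate 1. The granzyme Gzma (chromosome 13, 113093825 to 113100981) had 3.07 TPM in replicate 2 and 3.58 TPM in replicate 1. The granzyme Gzmb had 1.09 TPM in replicate 2 and 1.53 TPM in replicate 1. Gzma exceeded Gzmb in both libraries by a log2 ratio of 1.36 ± 0.19, and these 3 were the detected members of the group.

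Klrb1c, the NK1.1 receptor and 1 of a family of similar lectin genes, had 134 counts in replicate 2 and 108 in replicate 1 (0.80 TPM in replicate 2, 0.75 TPM in replicate 1). Reads shared within that family could make its count uncertain, which was not tested. The activating receptor Ncr1 (NKp46) had 64 counts in replicate 2 and 96 in replicate 1 (0.59 TPM in replicate 2, 0.99 TPM in replicate 1). Of 8 further genes of innate lymphoid and NK cells 5 were detected, led by the nuclear receptor Rora at 10.7 ± 2.20 TPM, which is active far beyond lymphoid cells, and the receptors Klrd1 at 2.79 ± 0.785 TPM and Klrk1 at 2.60 ± 0.643 TPM.

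The B and plasma cell group was split by 1 gene. Ighm (chromosome 12, 113418558 to 113422730, minus strand), the constant region of the IgM heavy chain, had 21.7 TPM in replicate 2 and 21.6 TPM in replicate 1, from 2590 counts in replicate 2 and 2385 in replicate 1. Cd79a, the signalling chain that accompanies surface immunoglobulin, had 52 counts in replicate 2 and 50 in replicate 1 (0.49 TPM in replicate 2, 0.52 TPM in replicate 1). Ighm therefore stood above Cd79a by a log2 ratio of 5.42 ± 0.06, or 42.9-fold (22.0-fold with a pseudocount of 0.5 TPM), and the other members of the group had means between 0.125 and 1.19 TPM.

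Its partner Cd79b had 1.27 TPM in replicate 2 and 0.90 TPM in replicate 1, above Cd79a by a log2 ratio of 1.08 ± 0.41. Jchain, which links polymeric IgM and IgA, had 1.26 TPM in replicate 2 and 1.11 TPM in replicate 1. Ms4a1 (CD20) had 18 counts in replicate 2 and 37 in replicate 1 (0.07 TPM in replicate 2, 0.18 TPM in replicate 1). Of 8 further genes 2 were detected in both libraries, the proteoglycan Sdc1 at 167 ± 8.51 TPM, which epithelia express, and the kappa light chain constant region Igkc at 10.5 ± 1.00 TPM. Igha followed at 1.61 ± 1.17 TPM. The B cell receptor Cd22 had 0.385 ± 0.0636 TPM and the B cell transcription factor Pax5 had 0.0150 ± 0.0212 TPM.

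No granulocyte gene was detected. Mpo (myeloperoxidase) had 31 counts in replicate 2 and 14 in replicate 1 (0.81 TPM in replicate 2, 0.32 TPM in replicate 1), Elane (neutrophil elastase) had 2 counts in replicate 2 and 8 in replicate 1 (0.03 TPM in replicate 2, 0.14 TPM in replicate 1), and Siglecf, an eosinophil lectin that some macrophages share, had 45 counts in replicate 2 and 63 in replicate 1 (0.23 TPM in replicate 2, 0.35 TPM in replicate 1). Ly6g, the neutrophil surface marker, was at 0 counts in both, which allows up to the floor given above. Of 12 further granulocyte genes, 2 reached 1 TPM in both libraries, Retnlg at 3.04 ± 0.163 TPM and the receptor Csf3r at 1.20 ± 0.0283 TPM, and S100a8 followed at 0.730 ± 0.297 TPM. Of 6 genes of red cells and platelets, listed as markers of blood left in vessels, 4 were detected. The 6 genes summed to 446 TPM in replicate 2 and 360 TPM in replicate 1. The haemoglobin chains Hbb-bs and Hba-a2 led, at 148 ± 18.2 and 135 ± 18.3 TPM, with Pf4 at 69.2 ± 28.8 TPM. The other platelet gene, Ppbp, had only 0.185 ± 0.0354 TPM, and whether Pf4 RNA came from blood was not tested. The part of blood in the leukocyte levels was not tested.

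Ratios between the libraries, replicate 2 over replicate 1, were formed from counts scaled by TMM (a normalisation for library size and composition) for the 32 members with a mean of at least 1 TPM. Only Clec9a and Cd163 were at least 2-fold apart, beside 2.53% of all 14533 genes at that level. Clec9a was higher in replicate 2, with a ratio of 2.15 (counting interval 1.83 to 2.54). Cd163 was lower in replicate 2, with a ratio of 0.440 (0.406 to 0.476). At 1.5-fold the count was 4 members, beside 9.87% of all genes, and the additional ones were Flt3 at 1.53 (1.29 to 1.81) and Cd4 at 0.628 (0.522 to 0.753). Counts of 2 and 4 among 32 members are too small to set the members apart from that background.

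The counting interval left out a ratio of 1 for 20 of the 32 members, of which 6 were higher and 14 lower in replicate 2, beside 74.3% of all genes (38.8% higher and 35.5% lower). Scaled by total gene counts in place of TMM, 11 members were higher and 10 lower, beside 55.8% higher and 23.2% lower over all genes. The libraries thus differed beyond counting error in most genes, members or not, and counting error does not cover the spread between them. The median log2 ratio was -0.09 over the members and 0.02 over all genes of that level. By lineage, the 6 mast cell genes in this comparison lay below 1, from 0.764 (Mcpt4) to 0.884 (Cma1), and the 4 dendritic cell genes lay above 1, from 1.07 (Zbtb46) to 2.15, where 47.9% of all genes lay below 1 and 52.1% above. The intervals of Cma1 (0.776 to 1.01) and Zbtb46 (0.982 to 1.16) held 1. These directions were the same with DESeq2 size factors, with total gene counts and relative to genes of like length. With total gene counts, however, 67.3% of all genes lay above 1 and 32.7% below. Ms4a2, too low for this comparison, had a ratio of 1.67 (0.822 to 3.55). By TPM, 3 of the 9 further mast cell genes were higher and 6 lower in replicate 2, and 6 of the 8 further dendritic cell genes were higher and 2 lower (Cd74 and Itgax). TPM is on another scale than the ratios above, and no share of all genes by TPM is given beside these counts. The 3 NK and cytotoxic genes in this comparison also lay below 1, at 0.966 (Nkg7), 0.807 (Gzma) and 0.675 (Gzmb). Nkg7 was at 1.05 with total gene counts. Macrophage genes lay on both sides, with Folr2 at 1.48 (1.41 to 1.55) and Mertk at 0.701 (0.656 to 0.748). Genes of a lineage share their cells, so their directions are not replicated measurements. The part of the unlike shares of muscle and epithelial RNA in these ratios was not tested.

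**Figure D2:**
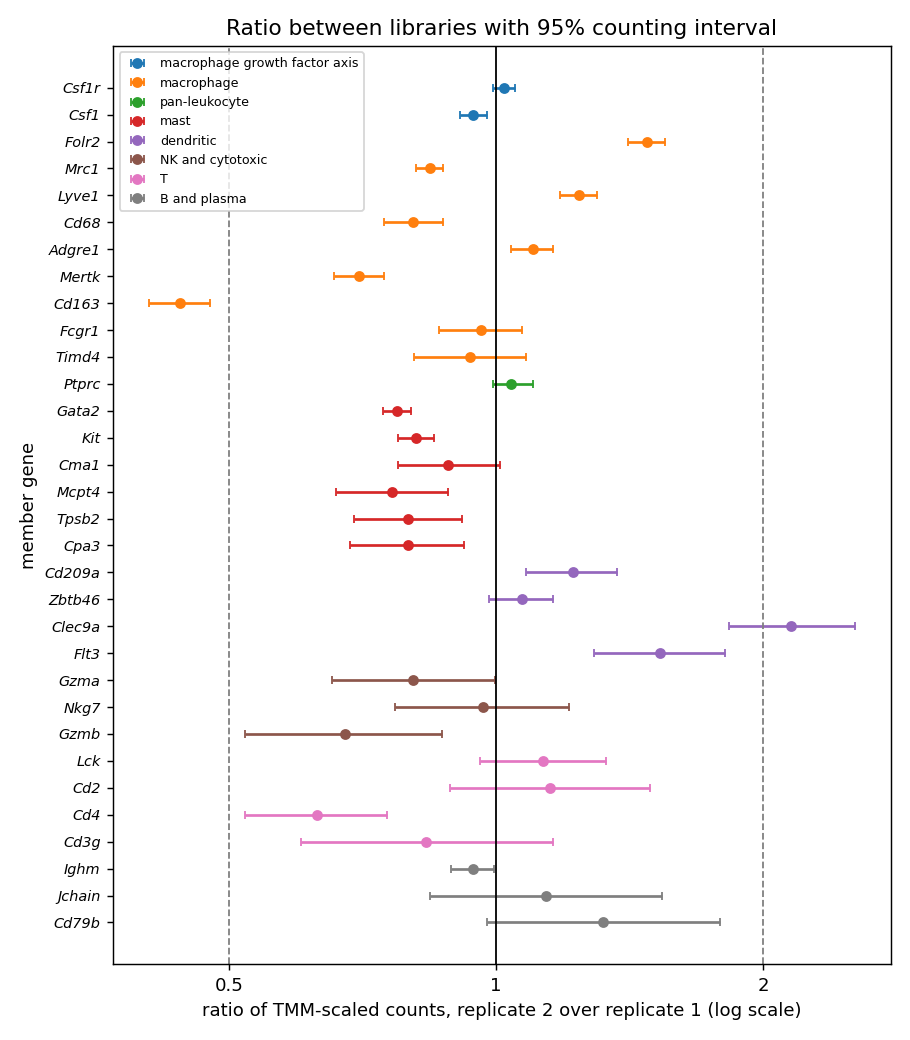
Ratio of TMM-scaled counts, replicate 2 over replicate 1 (horizontal log axis), for the 32 members with a mean of at least 1 TPM (vertical axis, coloured by lineage), where bars are 95% counting intervals, the solid line marks a ratio of 1 and dashed lines mark 2-fold. Cd163 (0.440) and Clec9a (2.15) lie beyond the dashed lines. The mast cell genes lie between 0.764 and 0.884, a range that also holds Cd68, Mrc1, Cd3g and Gzma.

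The splice junction table, built on the mm9 assembly with reads pooled over both libraries, gave a second readout of the same RNA. Of the 44 measured members, 43 had spliced reads inside the gene on its strand and 41 had at least 10. Those reads numbered 69780, of which 98.9% joined deposited exon ends. Csf1r had 16435 junction reads, Mrc1 8599 and Adgre1 5438, while Ms4a2 had 7, Elane 4 and Ly6g none. Per 100 counted fragments the 41 members had a median of 65.6 junction reads, from 7.06 in Zbtb46 to 152 in Cd3g.

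Transcript estimates were compared for the 21 members of at least 1 TPM with more than 1 quantified transcript, and in 20 of them 1 transcript held over 50% in both libraries. The exception was Kit. Kit-201, with the 12-base insert shown above, held 43.7% in replicate 2 and 52.2% in replicate 1, and Kit-204, without it, held 53.8% in replicate 2 and 45.8% in replicate 1. The forms traded places between the libraries. The junction from exon 9 gave 36 of 92 reads with the insert, or 39.1% (exact Clopper-Pearson interval 29.1 to 49.9%).

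Ptprc RNA mostly lacked the variable exons 4, 5 and 6, which encode the A, B and C segments that naive lymphocytes keep. Of 102 reads leaving exon 3, 62 went straight to exon 7 (60.8%, interval 50.6 to 70.3%), the joint shown above for Ptprc-203. Another 30 went to exon 5 (29.4%, 20.8 to 39.3%), 2 to exon 6, 8 to exon 8 and none to exon 4, where 0 of 102 has an upper limit of 3.55%. Entering exon 7, 19 of 86 reads came from exon 5, 4 from exon 6 and 1 from exon 4. The transcript Ptprc-203, which has no variable exon, held 59.9% in replicate 2 and 64.5% in replicate 1. That share is over all 13 quantified transcripts, while the junction share counts only reads leaving exon 3. The 2 shares are therefore not like measures, and their closeness is no check of either. The retained-intron transcript Ptprc-201, which begins downstream of exon 7, held 15.4% in replicate 2 and 11.3% in replicate 1.

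In Csf1 the 2 readouts did not coincide. A long exon encodes the part that distinguishes the secreted glycoprotein from the membrane-spanning form, and use of an acceptor 885 bases further in removes it. The shortened form Csf1-202 held 27.0% in replicate 2 and 27.9% in replicate 1 by transcript estimate, but only 35 of 624 reads used the inner acceptor (5.61%, 3.94 to 7.71%). The full-length Csf1-201 held 52.6% in replicate 2 and 57.4% in replicate 1. Csf1-203, which has the same coding sequence but ends at the nearer of 2 last exons, held 17.7% in replicate 2 and 12.4% in replicate 1, and the junction into that last exon had 64 of 597 reads (10.7%, 8.35 to 13.5%).

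Gata2 also differed between readouts. Gata2-202, which begins at the distal start shown above, held 42.2% in replicate 2 and 42.5% in replicate 1, and Gata2-201, from the proximal region, held 57.8% in replicate 2 and 57.5% in replicate 1. Of 370 reads spliced into exon 2, 70 came from the distal first exon (18.9%, 15.1 to 23.3%) and 300 from the proximal one (81.1%, 76.7 to 84.9%). In both readouts the proximal start was the larger. In Lck, 26 of 27 reads into exon 2 came from the distal first exon (96.3%, 81.0 to 99.9%), and Lck-202, the distal transcript, held 71.8% in replicate 2 and 73.4% in replicate 1 of all 8 quantified transcripts. The retained-intron transcript Lck-203 had 14.4% in replicate 2 and 6.40% in replicate 1.

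**Figure D3:**
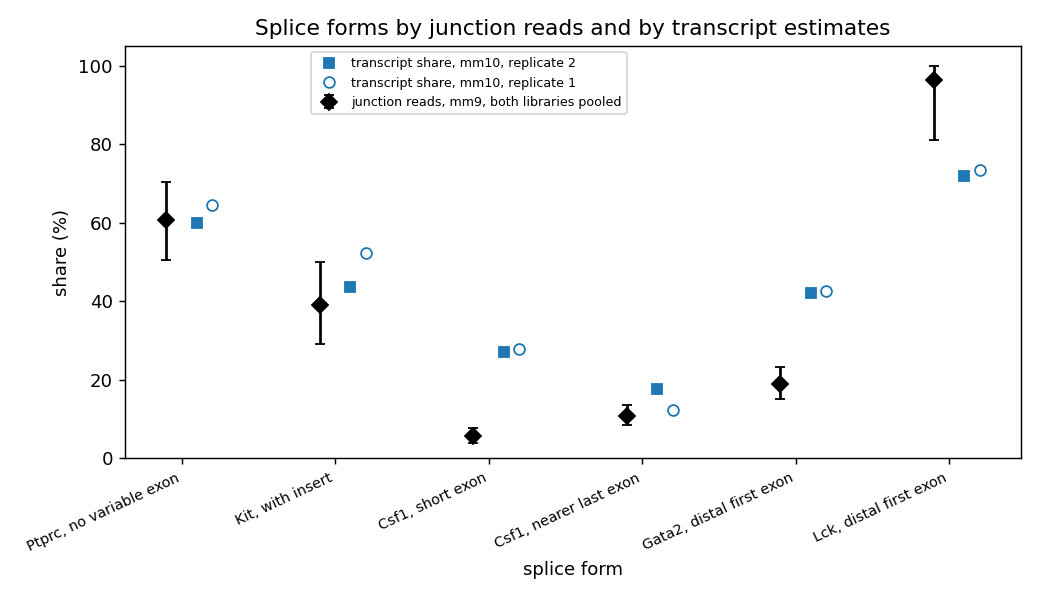
Share of 6 splice forms in percent (vertical axis) by junction reads pooled over both libraries (black diamonds, bars are exact 95% intervals) and by transcript estimates (filled squares for replicate 2, open circles for replicate 1). Transcript shares are over all quantified transcripts of a gene and junction shares over reads at 1 joint, so they are not like measures. The values lie near each other for Ptprc (60.8% by junctions). They lie apart for the short form of Csf1 (5.61% by junctions, 27.0% in replicate 2 and 27.9% in replicate 1 by estimate) and distal Gata2 (18.9% by junctions, 42.2% in replicate 2 and 42.5% in replicate 1 by estimate).

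Other members had a clear main form. Csf1r-201 held 84.4% in replicate 2 and 85.2% in replicate 1, Adgre1-202 held 93.1% in replicate 2 and 90.3% in replicate 1, and Cd68-201 held 93.3% in replicate 2 and 98.3% in replicate 1. In Mrc1 the full transcript Mrc1-201 held 63.6% in replicate 2 and 70.2% in replicate 1, and the remainder was Mrc1-202, a retained-intron fragment at the end of the gene. Cd163 was divided between Cd163-201 (53.4% in replicate 2, 59.3% in replicate 1) and Cd163-202 (46.6% in replicate 2, 40.7% in replicate 1), which code for 1120 and 1158 residues, and both were lower in replicate 2 (1.40 TPM, against 3.38 TPM in replicate 1, for Cd163-201, and 1.22 TPM, against 2.32 TPM in replicate 1, for Cd163-202). Clec9a-201 held 82.1% in replicate 2 and all of its TPM in replicate 1. Both noncoding and coding forms were estimated for Jchain, where the coding Jchain-201 held 66.1% in replicate 2 and 57.7% in replicate 1, and for Mertk, where the coding Mertk-201 held 78.6% in replicate 2 and 77.3% in replicate 1.

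The high level of Ighm was followed through its junctions, a choice made after its values were seen. The 4 constant exons were joined by 707, 733 and 639 reads in order, and 287 reads left the last one by the membrane joint shown above, with 318 reads from the first to the second membrane exon. The 287 reads were 44.9% of the 639 that joined constant exons 3 and 4. By transcript estimate the membrane form Ighm-202 held 60.1% in replicate 2 and 67.3% in replicate 1, and the secreted form Ighm-201 held 39.9% in replicate 2 and 32.7% in replicate 1. The membrane share was thus lower by junctions than by estimate. The junction share compares reads over different joints, so which form was larger is not settled. A rearranged heavy chain RNA is spliced from a J segment to the first constant exon, whereas unrearranged germline RNA is known to start between the J segments and the constant exons and to join the same exon. Of 448 reads that entered the first constant exon from the 10000 bases upstream, 73 came from 3 annotated J segments (16.3%, interval 13.0 to 20.0%). A single donor 3924 bases upstream, on the constant exon side of the J segments and at no annotated J segment, gave 193 reads (43.1%, 38.4 to 47.8%). The remaining 182 reads came from 31 other donors at no annotated J segment. One of these, with 8 reads, lay 6737 bases upstream, between Ighj1 at 7050 and Ighj3 at 6354 bases. The share from J segments may therefore be understated. The neighbouring Ighd had 0.74 TPM in replicate 2, against 0.91 TPM in replicate 1. Ighg1, Ighg2b and Ighg3 had means of at most 0.0450 TPM.

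RefSeq promoter windows of 300 bases were at hand for 35 members (42 windows). The ETS core AGGAAG, the sequence class bound by the factor encoded by Spi1, was found on either strand in 23 of the 42 windows (54.8%), against 35.4% of all 32851 windows. Of the macrophage genes with a window, Mrc1, Fcgr1 and Folr2 had an ETS match, and Mertk, Cd163, Timd4 and Cd68 had none. The RUNX motif TGTGGT was in 12 (28.6%, against 16.8% of all windows), and the GATA motif AGATAA in 4 (9.52%, against 11.2%). Some members had more than 1 window, and those of Ptprc, Kit, Ncr1 and Ly6g overlapped. The same match could thus count more than once, and the windows are not independent. The 2 mast cell chymases each had 1 ETS and 1 RUNX match. Other mast cell windows differed, with 1 GATA and 1 RUNX match in Cpa3, 3 GATA matches in Ms4a2 and 1 ETS match in each Kit window. A link between matches and levels was not tested. The chymase windows (minus strand, chr14:55944626-55944925 for Cma1 and chr14:56062261-56062560 for Mcpt4) are shown with the matches in capitals.
Cma1: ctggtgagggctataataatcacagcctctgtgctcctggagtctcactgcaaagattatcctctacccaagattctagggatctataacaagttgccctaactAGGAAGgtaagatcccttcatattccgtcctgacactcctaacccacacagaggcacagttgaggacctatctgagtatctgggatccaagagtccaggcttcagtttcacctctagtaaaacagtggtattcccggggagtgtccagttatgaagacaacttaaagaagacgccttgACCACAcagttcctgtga
Mcpt4: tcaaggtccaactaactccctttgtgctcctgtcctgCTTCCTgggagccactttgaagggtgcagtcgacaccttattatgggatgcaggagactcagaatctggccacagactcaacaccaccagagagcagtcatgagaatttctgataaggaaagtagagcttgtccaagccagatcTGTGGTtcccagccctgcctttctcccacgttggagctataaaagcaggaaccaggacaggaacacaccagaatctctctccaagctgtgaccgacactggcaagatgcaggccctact
Matches are letters in a window and say nothing of binding, and neither Gata2 window held any of the 3 motifs. Spi1 itself had 14.0 ± 0.955 TPM.

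The mm9 gene table gave mean RPKM values (another length-adjusted abundance) that ordered the 44 members much as TPM did, with a Spearman correlation of 0.991 across genes, which come from the same libraries and are not independent. The RPKM scale was lower, at a median of 0.144 of the TPM value over the 32 members of at least 1 TPM and from 0.0832 to 0.184 for single genes. Folr2 was highest on both scales, at 7.25 RPKM, followed by Csf1r at 4.92 RPKM. Mpo stood apart, with 0.0250 RPKM beside a mean of 0.565 TPM, and only 29 of its 45 junction reads joined deposited exon ends.

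**Figure D4:**
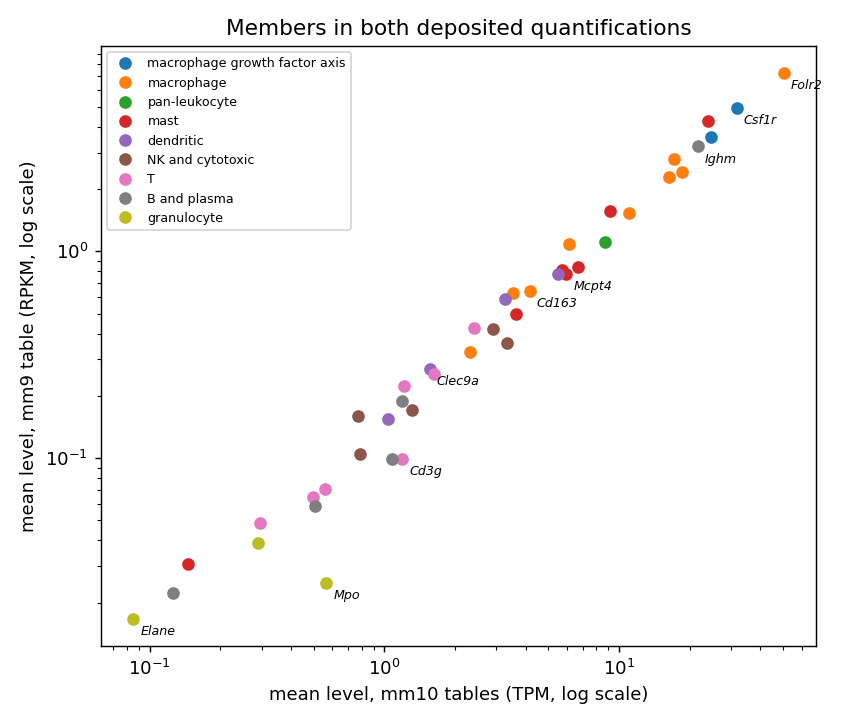
Mean level of each member above 0 in the mm10 tables (horizontal log axis, TPM) and in the mm9 table (vertical log axis, RPKM), coloured by lineage. Points follow 1 band from Elane to Folr2 (50.3 TPM, 7.25 RPKM), and Mpo lies below it.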

How the data were processed

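Both libraries form 1 group. Per the labels, they are stranded polyA libraries quantified on mm10; per the file headers, the deposited gene and transcript tables hold expected counts and TPM (maximum likelihood and posterior mean). For the aligner and the counting tool, the sources used here name nothing. All 44 measured members had whole expected counts, as did 87.1% of genes with a count above 0. Rows that are no Ensembl gene took 5.98% (replicate 2) and 5.01% (replicate 1) of expected counts and were left out; TPM was kept as the authors scaled it. Of 43346 genes, 42462 matched a GENCODE M21 symbol, and positions are from M21. The deposited mm9 table gives 2 RPKM values per gene, per the file headers, whose replicate is not given, so their mean was used. Deposited junction read counts are pooled.

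Counts were rounded for TMM scaling (edgeR 4.0.16, R 4.3.3; DESeq2 1.42.0 size factors as an alternative). With 1 group there is no contrast between conditions, a comparison of 1 library with the other leaves no residual degrees of freedom, and no p-value is given. Ratios have 95% Clopper-Pearson intervals, checked on counts simulated with counting error alone. The check therefore says nothing of the spread between the libraries. Other steps used Python 3.11.15, pandas 2.3.3, scipy 1.17.1 and matplotlib 3.10.9. Genes named are all members, the 3 highest of each further list and list genes among its first 3 entries. The others were named after their values were seen (Il34, Spi1, Cd8b1, Ppbp and the other immunoglobulin heavy chains). One list gene is not reported here, though its list's counts include it. Members and lists were chosen with earlier results of these data known. Alternatives were other detection levels, scalings, filters and pseudocounts, and each library alone.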

Additional observations from a re-analysis of the deposited data

How the results depend on the processing

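No paired analysis was possible because the series has 1 group. The count of members detected was 28; it was 12 at 1 RPKM in the mm9 table and 15 at 5 TPM, and lay between 29 and 35 under the other settings (29 and 31 with a library left out). The mm9 count follows from its lower scale, and no share of all genes is given for these other settings. Of 9 lineage groups, 5 kept their rank when CPM, which is not per length, replaced TPM. Between 6 and 9 kept it with a library left out. The number of members at least 2-fold apart, 2 in the values above, was 5 with no filter other than 10 counts (Cd8a, Ms4a1 and Elane in addition, and 8.05% of all genes), 0 with a filter of 5 TPM (1.61% of all genes), 4 at 1.5-fold and 0 for ratios of TPM with a pseudocount of 0.5. Cd163 ran from 0.440 to 0.481 and Clec9a from 2.15 to 2.34 over the other scalings. Intervals left out 1 for 13 of 16 members with the 5 TPM filter (80.2% of all genes). With no filter other than 10 counts they did so for 24 of 43 members (62.5% of all genes). Under the other scalings it was 19 to 22 of 32 members, beside 71.7% to 79.0% of all genes. Under the posterior mean, the mm9 values and the pseudocount, 18 of 48 gene pair values moved by more than the SD and 0 changed sign; rescaling a library cannot change a ratio within it. Counts limit Ly6g, Elane, Ms4a2, Mpo and Ms4a1 most.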
